A study of Mus musculus with 16 samples.

Results

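The loci described here are those of 10 genes of fibroblast growth factor (Fgf) signalling in the mouse cochlea, the ligand genes Fgf3, Fgf8, Fgf9, Fgf10 and Fgf20, the receptor genes Fgfr1, Fgfr2 and Fgfr3, and the inhibitor genes Spry2 and Spry4. The genes were taken by name, and all 10 were found among the 21755 protein-coding genes that the GENCODE vM21 annotation places on the chromosomes of the deposited loop list. Chromatin contacts were measured by Micro-C, in which crosslinked chromatin is cut with micrococcal nuclease and ends that lie close together are ligated, in whole cochlea of C57Bl/6 mice. The 4 replicates were labelled P0, the day of birth, while the design text of the series gives P0/1, and the sources used here differ on whether the fourth replicate is biological or technical. Loops were called on the merged replicates in bins of 10 kb, so the values below carry no replicate spread, and the depth per replicate is not known from the list. The tissue mixes many cell types, and because a loop list holds no expression values, neither the cells in which a contact occurred nor cell type markers could be checked in it.

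Fgf ligands are secreted proteins that bind receptor tyrosine kinases of the Fgfr family, which signal inside the cell largely through the Ras and MAP kinase cascade. Sprouty proteins, encoded by the Spry genes, are induced by the pathway and restrain it in return. In the inner ear the pathway acts from the induction of the otic placode to the patterning of hair cells and supporting cells in the organ of Corti.

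A loop in the list is a pair of 10 kb bins, its anchors, between which contacts stood out from their surroundings. Each loop carries a false discovery rate (FDR) and a detection scale, the scale at which the loop caller found it. An anchor was counted at a gene when its bin overlapped the gene or lay within 100 kb of the start site, and a loop was said to span a gene when the whole gene lay between the inner edges of its anchors. With the gene records of the annotation, 7 of the 10 genes had an anchor at the gene, beside 63.7% of all protein-coding genes. A loop spanned 7 of the 10 genes, beside 28.1% of all protein-coding genes, and with loops of the smallest detection scale alone these values were 4 genes and 23.1%. The bin of the start site was itself an anchor for 2 genes, Fgf8 and Fgfr2, beside 7.1%. The share with an anchor at the gene was therefore near that of all genes, and no difference was tested for any of these counts. Either kind of loop was present at 9 of the 10 genes, and Fgfr3 had neither, as did 33.0% of all protein-coding genes.

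The gene record of Fgfr2 changed the number of loops. It covers 2960900 bp of chromosome 7, because 1 of its 27 transcripts has its first exon at chr7:133123141-133123350, while the start sites of the others lie no farther upstream than 130266263. Of the 28 distinct loops with an anchor at one of the 10 genes, 16 belonged to this record, and most of them lay at other genes that the record encloses. The start-site anchor counted for Fgfr2 by its record was the bin of this distant exon, chr7:133120001-133130000, which also holds the start site of Ctbp2 and was joined over 500 kb to its partner (FDR 0.0146). The transcripts that the annotation marks as principal were therefore used for the description of each locus, a choice made after the loops had been seen. With them, 7 of the 10 genes again had an anchor at the gene, beside 63.6% of all protein-coding genes. The number spanned became 8, beside 28.6%, and Fgf8 and Fgfr2 again had an anchor in the bin of the start site, beside 6.95%. With loops of the smallest detection scale alone, 5 genes were spanned, beside 23.5%, and 1 had an anchor in the start-site bin, beside 5.39%. In the full list, the loops with an anchor at one of the genes numbered 13 and those spanning a gene 14. Together they made 21 distinct loops.

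**Figure D1:**
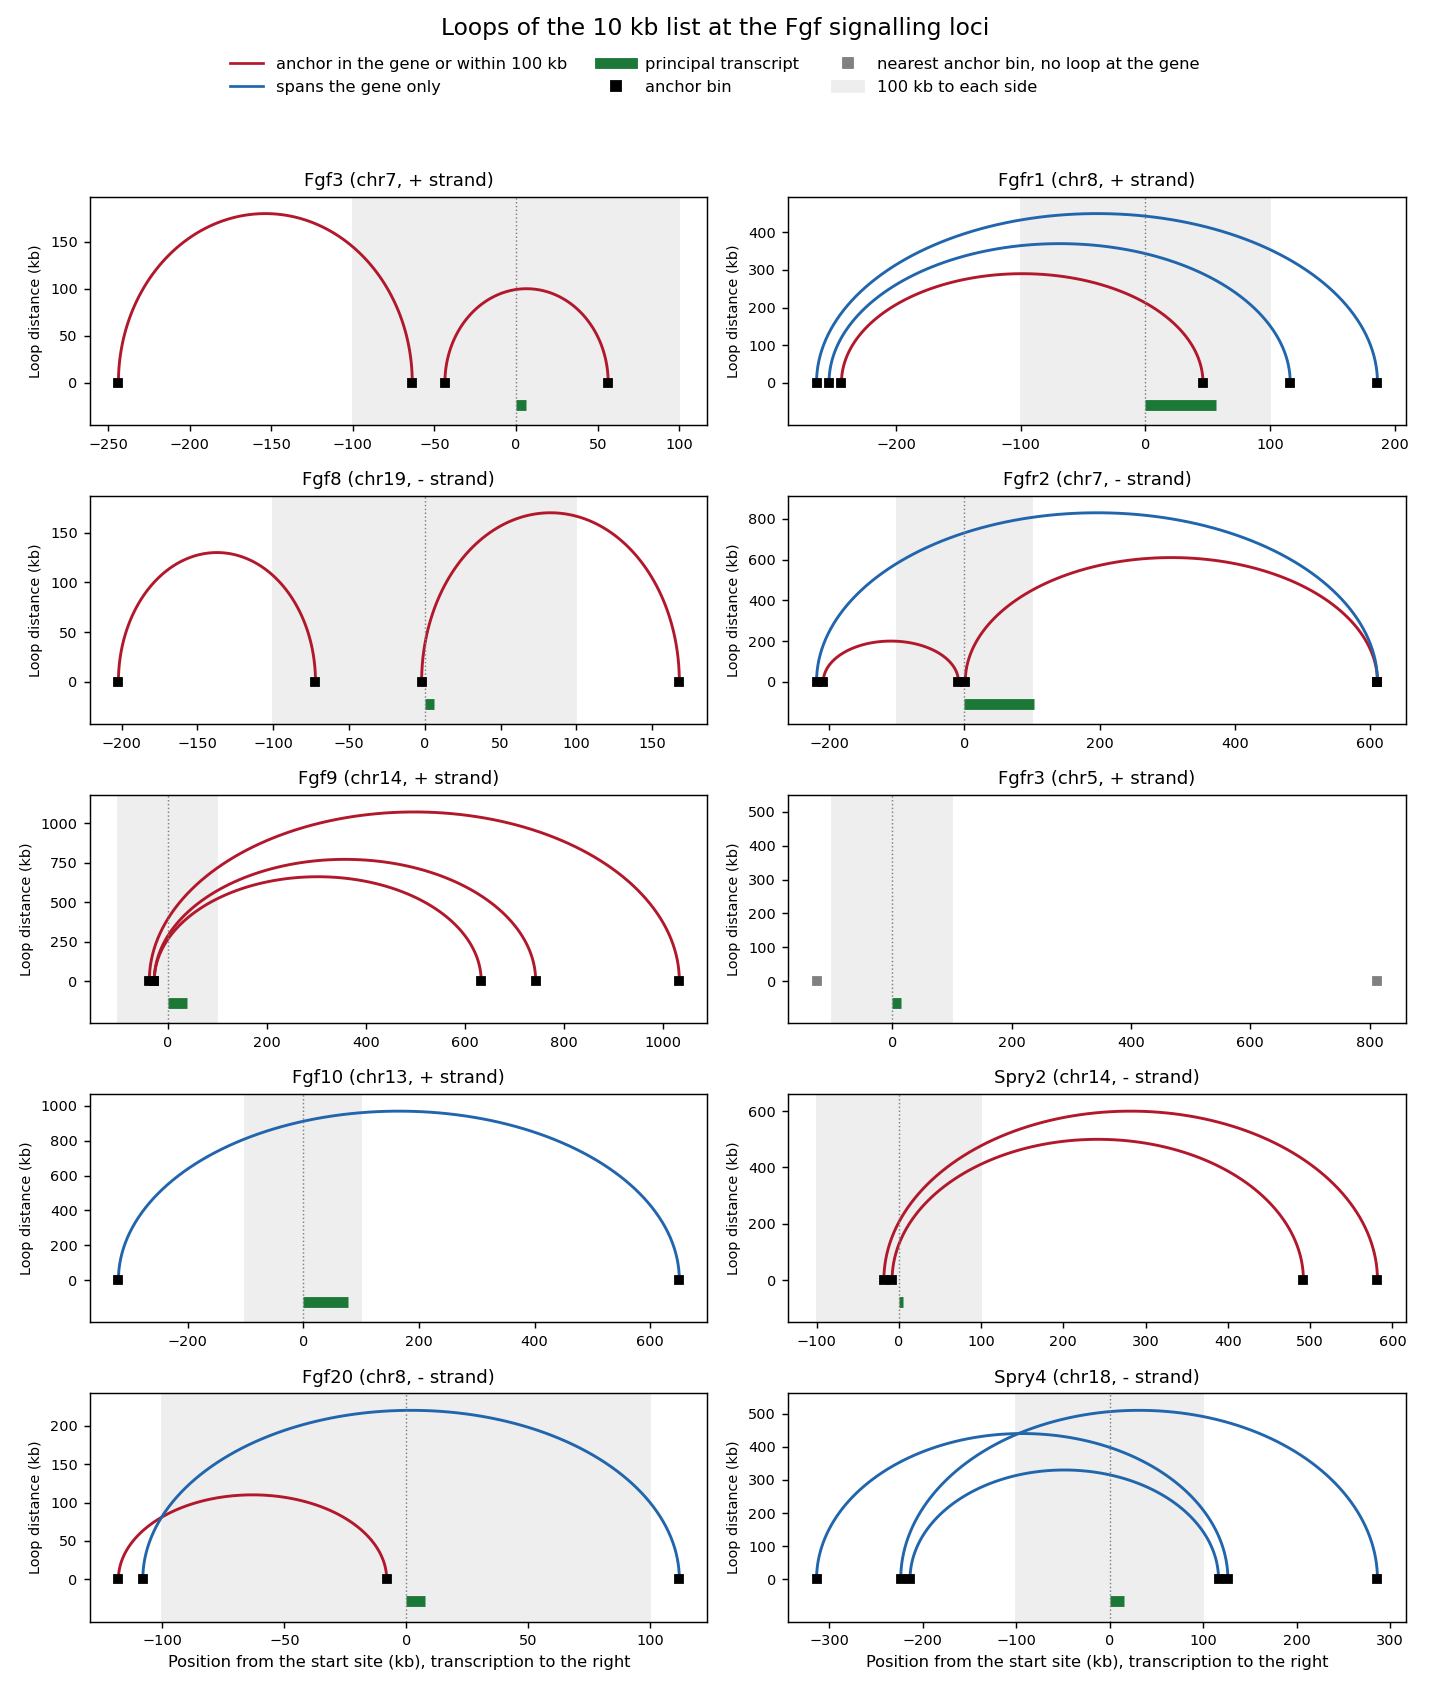
Loops at the 10 loci, with the position from the start site of the principal transcript in kb on the horizontal axis (transcription to the right) and the loop distance in kb as the height of each arc. Red arcs have an anchor in the gene or within 100 kb (grey band), blue arcs only span the gene, and Fgfr3 has no arc, its nearest anchors (grey squares) lying 122 kb upstream and 808 kb downstream.

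Among the ligands, Fgf3, which acts with Fgf10 in the induction of the otic placode, lay within the shortest loop found at the 10 loci. Its start site, at 144838595 on chromosome 7, was enclosed by a loop of 100 kb between chr7:144790001-144800000 and chr7:144890001-144900000 (FDR 5.33e-05). This loop held Fgf3 and Fgf4 inside, and its downstream anchor held the start site of Fgf15 and overlapped its 3 exons, so that 3 neighbouring ligand genes lay within or at the end of a single loop. Upstream of it, a loop of 180 kb (FDR 8.09e-05) joined chr7:144770001-144780000, 58.6 kb from the Fgf3 start site, to chr7:144590001-144600000, which overlaps exons 23 to 26 of Ano1, a gene for a calcium-activated chloride channel. Both loops ended between Ano1 and Fgf3, in bins separated by a single other bin, and neither joined the Fgf3 start site itself.

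Fgf8, the ligand that inner hair cells send to the neighbouring pillar cells, was the only ligand of the 5 whose start site lay in an anchor. The bin chr19:45740001-45750000 holds the start site, 45742874, and exons 1 to 4 of Fgf8, which is read from the minus strand, and all of Npm3, a gene for a nucleoplasmin-type histone chaperone. It was joined over 170 kb (FDR 0.00336) to chr19:45570001-45580000, a bin with the last 3 exons of Fbxw4 and 4 exons of Gm17018, and the start site of Fbxw4 lay inside the loop. A separate loop of 130 kb (FDR 0.00776) began 67.1 kb upstream of Fgf8, at chr19:45810001-45820000, where the start site of the potassium channel interacting gene Kcnip2 lies. That bin also overlaps the last exon of Armh3, and the other anchor of this loop lay within the same gene, over exons 15 and 16. These loops lay on either side of Fgf8, and no loop of the list spanned it.

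Fgf9, a ligand expressed in the epithelium of the developing inner ear and acting on the surrounding mesenchyme, was spanned by 3 loops that all began just upstream of it (start site 58072686 on chromosome 14). Of these, 2 shared the anchor chr14:58040001-58050000, 22.7 kb upstream of the start site, and reached 660 kb (FDR 0.0163) and 770 kb (FDR 0.0517) downstream. The other loop began in the neighbouring bin and reached 1070 kb (FDR 0.0118), the longest at the 10 loci. No other protein-coding gene started inside any of the 3 loops, and the far anchors, at chr14:58700001-58710000, chr14:58810001-58820000 and chr14:59100001-59110000, overlapped no protein-coding gene. The nearest protein-coding start site to each far anchor was that of 1700129C05Rik, at 433, 323 and 32.9 kb. Having 3 or more spanning loops was uncommon in the list, since 3.1% of all protein-coding genes had as many.

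Fgf10 (start site 118714699 on chromosome 13) had no anchor within 100 kb, and a single long loop enclosed it. The loop ran over 970 kb (FDR 0.00111) from chr13:118390001-118400000, 315 kb upstream of the start site and 2.75 kb from the start site of the mitochondrial ribosomal protein gene Mrps30, to chr13:119360001-119370000, 645 kb downstream and over exons 10 to 12 of Nnt, which encodes a mitochondrial transhydrogenase. Fgf10 was the only protein-coding gene that started between these anchors. No anchor of the list lay between them, so that the Fgf10 start site was inside a stretch of 960 kb without an anchor.

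Fgf20, a ligand needed for the differentiation of outer hair cells and supporting cells, had an anchor bin immediately upstream of its principal transcript, at a distance of 3.05 kb from the start site (40286953 on chromosome 8, minus strand). This bin, chr8:40290001-40300000, was joined over 110 kb to chr8:40400001-40410000 with an FDR of 0.0746, the weakest support among the 21 loops. A loop of 220 kb (FDR 0.0047) between chr8:40170001-40180000 and chr8:40390001-40400000 spanned Fgf20, its anchors lying 107 kb downstream and 103 kb upstream. Upstream, both loops ended between Micu3, a gene for a regulator of mitochondrial calcium uptake whose start site they enclose, and Zdhhc2, whose start site lay 13.8 kb from the nearer of the 2 bins. The gene record of Fgf20 extends farther upstream, to 40308331, and with it the 220 kb loop also counted as having an anchor within 100 kb, at 81.7 kb.

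Of the receptors, Fgfr1 and Fgfr2 had 3 loops each and Fgfr3 had none. At Fgfr1, the receptor required for the formation of sensory progenitors in the cochlea (start site 25518759 on chromosome 8), the 3 loops were nested. The innermost, of 290 kb, had the lowest FDR of the 3 (7.74e-05) and joined chr8:25270001-25280000, 239 kb upstream, to chr8:25560001-25570000, a bin inside the gene that holds exons 6 to 11 of 18. The others spanned the gene and ran over 370 kb (FDR 0.0072) and 450 kb (FDR 0.019). Their upstream anchors were the next bins outward, at 25260001 and 25250001, and their downstream anchors lay in the histone methyltransferase gene Nsd3, 111 and 181 kb from the Fgfr1 start site. The nearest protein-coding start site to the 3 upstream anchors was that of Tacc1, 68.5, 58.5 and 48.5 kb away, and both spanning loops enclosed the start sites of Letm2 and Nsd3. The Fgfr1 start site itself was 41.2 kb from the nearest anchor.

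Fgfr2, the receptor for Fgf3 and Fgf10 in its epithelial splice form, had its principal start site, 130266191, in the anchor chr7:130260001-130270000, which holds exons 1 and 2 of 18. This bin was joined over 610 kb (FDR 0.00342) to chr7:129650001-129660000, downstream of the gene, which is read from the minus strand. The next bin upstream, 3.81 kb from the start site, was joined in the other direction over 200 kb (FDR 0.00342) to chr7:130470001-130480000 in an intron of Ate1, which encodes an arginyl transferase. Another loop shared the downstream anchor chr7:129650001-129660000 and ended one bin beyond the 200 kb loop, at chr7:130480001-130490000 over exon 8 of Ate1, with a distance of 830 kb (FDR 0.00506). The start site of Fgfr2 thus lay where loops to both sides met, and a longer loop enclosed the point at which they met. Apart from Fgfr2, no protein-coding gene started inside these loops, and the nearest start site to the downstream anchor was that of Wdr11, 58.1 kb away.

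Fgfr3, the receptor that marks pillar and Deiters' cells and their progenitors, was the only gene of the 10 without a loop at it or across it (start site 33721724 on chromosome 5). Its nearest anchors were chr5:33590001-33600000, 122 kb upstream, and chr5:34530001-34540000, 808 kb downstream. Between them lay 930 kb without an anchor. The gene lies among many others, with 17 other protein-coding start sites within 500 kb, the most at the 10 loci and close to the median of 16 over all protein-coding genes. A loop that is not in the list was not called at this depth, which is not the same as a contact that is absent.

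Of the inhibitors, Spry2, whose loss in mice alters the fate of a Deiters' cell, lay at the end of a pair of parallel loops. Its start site at 105896819 on chromosome 14 was 3.18 kb from the anchor chr14:105900001-105910000, which was joined over 500 kb (FDR 0.00745) to chr14:105400001-105410000. The next bin upstream was joined over 600 kb (FDR 0.0014) to chr14:105310001-105320000. The anchors of these loops lay within 100 kb of each other at both ends. Both loops spanned Spry2 and ran downstream of it, the gene being read from the minus strand, and neither enclosed another protein-coding start site. The nearest protein-coding gene to the far anchors was Ndfip2, an adaptor of ubiquitin ligases, with its start site at 141 and 51.4 kb. Spry2 had 1 other protein-coding start site within 500 kb, the fewest at the 10 loci.

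Spry4, another Sprouty gene (start site 38601415 on chromosome 18, minus strand), had no anchor within 100 kb but was spanned by 3 loops. They ran over 330 kb (FDR 0.00154), 440 kb (FDR 0.0413) and 510 kb (FDR 0.016), and the shortest had a detection scale of 3.68, the highest among the 21 loops. The nearest anchor, chr18:38480001-38490000, lay 111 kb downstream of the start site, and the nearest upstream anchor, chr18:38810001-38820000, at 209 kb. The 440 kb loop ended in the bin chr18:38910001-38920000, which holds the start site of the principal transcript of the ligand gene Fgf1. By its gene record Fgf1 starts at 38929472, 9.47 kb from this bin, which also overlaps Arhgap26, as do the right anchors of the other 2 loops. The 510 kb loop began within Rnf14, over its last 3 exons, and enclosed the start sites of Ndfip1 and Gnpda1, and all 3 loops enclosed a start site of Arhgap26.

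The genes just outside the limit of 100 kb were Spry4, at 111 kb, and Fgfr3, at 122 kb, while Fgf10 was farther away. Inside it, the genes farthest from an anchor were Fgfr1, at 41.2 kb, and Fgf3, at 38.6 kb, so no gene lay between 41.2 and 111 kb. The median distance from a start site to the nearest anchor was 30.6 kb over the 10 genes and 56.8 kb over all protein-coding genes. By the gene records these medians were 29.3 and 56.6 kb, and they depended on the setting, being 82.5 and 152 kb with loops of FDR below 0.01 alone and 11.9 and 46.4 kb with the start sites of all transcripts. The genes fell into a group at or beside an anchor (Fgf8, Fgfr2, Fgf20 and Spry2, at most 3.18 kb), a group at 22.7 to 41.2 kb (Fgf9, Fgf3 and Fgfr1) and a group beyond 100 kb, of which 2 were nonetheless spanned. The place of Fgf20 rested on a single loop, with an FDR of 0.0746, and its next nearest anchor lay at 103 kb.

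**Figure D2:**
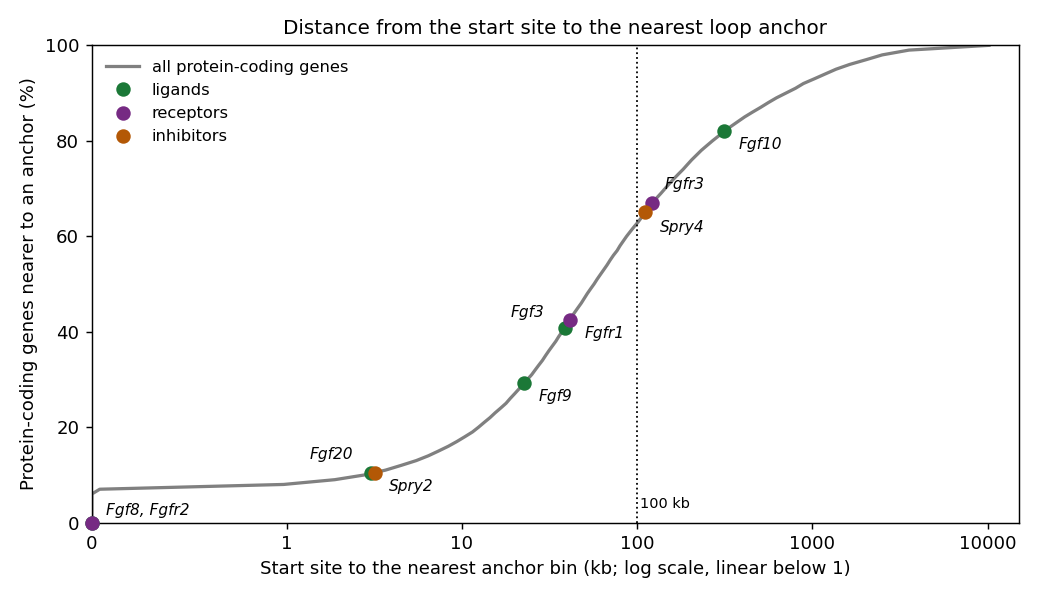
Distance from the start site of the principal transcript to the nearest anchor bin in kb (horizontal axis, log scale above 1 kb) against the percentage of all protein-coding genes that are nearer to an anchor (vertical axis), with the grey line for all 21755 genes. The start sites of Fgf8 and Fgfr2 lie in an anchor, and Spry4, Fgfr3 and Fgf10 lie beyond 100 kb, at 111, 122 and 315 kb.

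As a group, the 21 loops were longer than the list as a whole, with a median distance of 440 kb beside 280 kb over all 6798 loops. They ran from 100 to 1070 kb. The median FDR was 0.00506 beside 0.0113 over the list, and 14 of the 21 were below 0.01, as were 48.0% of all loops. At the smallest detection scale there were 13 of the 21, beside 71.7% of all loops. The rule for spanning loops itself selects on distance. The 14 spanning loops had a median of 505 kb, while the 13 loops with an anchor at a gene had one of 290 kb, close to that of the list.

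The 21 loops used 40 distinct anchor bins. A protein-coding start site lay in 5 of them, those of Fgf8 with Npm3, Fgfr2, Fgf15, Kcnip2 and Fgf1, beside 11.8% of all anchor bins. No principal transcript of a protein-coding gene overlapped 23 of the 40 bins, beside 43.9% of all anchor bins. Shared anchors were few, with 2 bins used by 2 loops each, at Fgf9 and downstream of Fgfr2, beside 13.4% of all anchor bins used by 2 or more loops. The surroundings of the 10 genes held fewer genes than usual, with a median of 8.5 other protein-coding start sites within 500 kb beside 16 over all protein-coding genes.

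The rest of the pathway was read from a list of 33 further genes, of which 32 were found on the chromosomes of the loop list. By the gene records, 24 of these 32 had an anchor at the gene, 14 were spanned and 5 had neither, beside 63.7%, 28.1% and 33.0% of all protein-coding genes. With principal transcripts the counts were 24, 16 and 5, beside 63.6%, 28.6% and 33.1%, and no difference was tested. By the gene records, 14 of the 17 ligand genes among them had an anchor at the gene and 6 were spanned, or 14 and 8 with principal transcripts. Of the 6 inhibitor genes, 3 had an anchor at the gene and 5 were spanned under either definition. All 3 target genes of the Etv family, which encode transcription factors induced by the pathway, had an anchor at the gene. These groups are too small to set against each other. The further receptor genes were Fgfr4, with an anchor at 67.4 kb, and Fgfrl1, with the nearest anchor at 812 kb and no loop across it.

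The bin of the start site was an anchor for 5 of the 32 genes by the gene records, beside 7.1% of all protein-coding genes. These were the ligand genes Fgf15 and Fgf18, the inhibitor genes Spred1 and Spred2 and the target gene Etv5, and with principal transcripts Fgf1 made 6, beside 6.95%. Fgf15 took part in the 100 kb loop around Fgf3. The bin of Fgf18 was the end of 2 loops, the shorter of 420 kb (FDR 0.000662). The loop of Spred1 ran over 220 kb (FDR 0.00732), that of Etv5 over 110 kb (FDR 0.00198) and that of Spred2 over 130 kb with the weaker FDR of 0.0835.

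The anchors were searched for the CTCF consensus, since the protein CTCF is known to hold many loop anchors. The search covered the 18 loops with an anchor at a gene or shortest across it, with at most 1 mismatch over 14 bases on both strands, and no measurement of CTCF binding was used. A match is a description of the sequence only. Of their 34 anchor bins, 15 held a match (44.1%), beside 48.4% of all anchor bins and 21.4% of all bins with at most 10% unknown bases. With the gene records the count was 32 of 57 bins (56.1%). A match points toward the partner when it is forward in the left anchor or reverse in the right one, and of the 11 loop ends whose best match lay on a single strand, 9 pointed toward the partner (81.8%), beside 81.4% of such ends over the whole list. By the gene records 28 of 31 did so (90.3%). The ends that pointed away were the downstream anchor of Fgf8 and the nearest anchor of Spry4, downstream of that gene. None of the 18 loops had such an orientation at both ends, while 1502 loops of the list did (22.1%), and in 1026 of these the matches pointed toward each other. By the gene records some loops did, such as, inside the Fgfr2 record, the 160 kb loop from chr7:132650001-132660000 to chr7:132810001-132820000. Its matches pointed toward each other. Of the 23 matches in the 34 bins, 6 had no mismatch and 7 overlapped bases that the genome sequence marks as repeats. Leaving aside the long Fgfr2 transcript, 2 lay in exons, 7 in introns and 14 outside transcripts.

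A part of the matches in anchors of the ligand loops, where these loops begin or end, is shown. For Fgf9 and Fgf10 they lie at the far end of the loop, 627 and 645 kb from the start site. The match in the downstream anchor of Fgf8, which pointed away from the partner, is not shown. Those in the bins of Fgf15 and Kcnip2 and a further match in the far anchor of Fgf10 are also left out. The Fgf8 bin held a match without mismatch on each strand, both outside transcripts, at chr19:45746526-45746555 (plus) and chr19:45747667-45747696 (minus). At Fgf3 the upstream loop ended in a match without mismatch at chr7:144776251-144776280 (minus), and the loop around the gene began with a match at chr7:144798627-144798656 (plus), so that the matches at the facing ends of the neighbouring loops lay on opposite strands, each toward its own partner. The Fgf9 loop of 660 kb ended in a match at chr14:58701921-58701950 (minus), and the Fgf10 loop in one in an intron of Nnt at chr13:119363566-119363595 (minus), in repeat-masked sequence. The match beside Fgf20, at chr8:40296609-40296638 (plus), lay in an intron of its longer transcripts. Sequences are from GRCm38.p6, 5′ to 3′ on the strand of the match, and capitals mark the 14 bases of the match.
Fgf8 anchor, plus strand: aaacacgcCCACCAGAGGGCGCtagttcca
Fgf8 anchor, minus strand: cccagggaCCACCAGGTGGCACtgtggccg
Upstream loop of Fgf3, right anchor: atgcttcaCCACCAGGGGGCAGcacaggcc
Loop around Fgf3, left anchor: cactgctaCCACAAGATGGCACtgctttgt
Fgf9 loop, right anchor: actcaactCCAGCAGGGGGCACcagcttca
Fgf10 loop, right anchor: ttgaatggCCAGCAGGGGGCAGcagatttt
Fgf20 loop, left anchor: tgggtcagCCACTAGAGGACGGtgtgctca

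At the receptors and at Spry2 the matches lay on the outer side of the loops or beside the gene. The innermost Fgfr1 loop began with a match at chr8:25277311-25277340 (plus), outside transcripts, and its other end inside Fgfr1 held none with at most 1 mismatch. For Fgfr2 neither the bin of the start site nor the next bin held a match, while the partner in Ate1 held 2, both on the minus strand and pointing back toward Fgfr2. The one shown lies in an intron of Ate1 at chr7:130476147-130476176. The shared downstream anchor of Fgfr2 had a match on each strand with 1 mismatch each, and so gave no orientation. The anchor 3.18 kb upstream of Spry2 held a match without mismatch at chr14:105903004-105903033 (minus), outside transcripts and partly in repeat-masked sequence, which pointed across Spry2 toward the partner 500 kb away. Capitals mark the match as before.
Fgfr1 loop, left anchor: aaggctttCCAACAGGTGGCGCtctagcag
Fgfr2 loop, right anchor in Ate1: gctgctgcCCACTAGATGCCAGtagcactc
Spry2 loop, right anchor: ctcagcggCCAGCAGAGGGCGCcagatctc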

How the data were processed

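Micro-C was performed on whole P0 cochlea in 4 replicates. Per the submitters' processing notes, BWA and Juicer were among the tools used. Reads were aligned to mm10, and loops were called on the pooled replicates with Mustache, at 10 kb resolution. The deposited q-value (FDR) is that of the caller the authors used, and all were below 0.1. The deposited score is the detection scale assigned by that caller. ATAC-seq and CUT&RUN samples were not analysed here. Genes came from GENCODE vM21 and sequence from GRCm38.p6, whose chromosomes hold all bins of the list. Overlaps, distances and consensus matches were computed in Python 3.11.15 (pandas 2.3.3, scipy 1.17.1, numpy 2.4.6; figures with matplotlib 3.10.9) by code tested on simulated data. The CTCF consensus, written from general knowledge, is not from the deposited data. Named genes are the 10 members, the gene that starts in, overlaps or lies nearest to each partner anchor, the genes inside the shortest spanning loop, and listed pathway genes whose start-site bin is an anchor. Fgfr4, Fgfrl1, and Gnpda1 and Ndfip1 inside a longer loop, were named after their values were seen. The members and lists were chosen with earlier results of these data known. No test was made, because merged replicates give no spread.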

Additional observations from a re-analysis of the deposited data

How the results depend on the processing

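The number of genes with an anchor at the gene stayed between 5 and 9 of 10 under 12 alternatives. By the gene records it was 6 at FDR below 0.01 and 9 for a window of 200 kb, and by principal transcripts 6 at FDR below 0.05 and 5 at FDR below 0.01, beside 57.9% and 42.4% of all protein-coding genes. Fgf20 was the gene lost by principal transcripts at FDR below 0.05. The number of other pathway genes with an anchor at the gene stayed between 19 and 27. Of 81 alternatives, 53 left the result within 1.5 times a count, within the 95% Wilson interval of a share or at the same median, and 28 did not. All alternatives with principal transcripts were chosen after seeing the data. Loops with an anchor at a gene fell from 28 to 15 without the gene body and to 13 with principal transcripts. With principal transcripts those at Fgfr2 fell from 16 to 2 and those at Fgf20 from 2 to 1. At FDR below 0.01 the start-site bin was an anchor for 1 gene by the gene records, while by principal transcripts both start-site loops have a lower FDR (Fgf8 0.00336, Fgfr2 0.00342) but 1 gene is left at the smallest detection scale. With neighbouring bins there were 4 such genes by the gene records. By these records 4 genes were spanned at the smallest detection scale, by 7 loops. At FDR below 0.01 the genes spanned numbered 6, also by 7 loops, beside 15.1% of all protein-coding genes. By principal transcripts 5 genes were spanned at the smallest detection scale, by 8 loops. At FDR below 0.01 the genes spanned by principal transcripts numbered 7, also by 8 loops, beside 15.4%. The median distance of the 10 genes to an anchor, by the gene records, was 42.2 kb at FDR below 0.05 and 82.5 kb at FDR below 0.01. Over all protein-coding genes these medians were 74.0 and 152 kb. For the 10 genes the median was 11.9 kb over all transcripts and 30.6 kb with principal transcripts, beside 46.4 and 56.8 kb.

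Over all protein-coding genes, the share with an anchor at the gene was 58.1% at FDR below 0.05, 42.5% at FDR below 0.01, 50.3% for 50 kb, 75.8% for 200 kb, 62.7% without the gene body and 64.8% over all transcripts. The share with an anchor in the start-site bin was 5.74% and 3.45% at these FDR limits, 12.0% over all transcripts and 17.7% with neighbouring bins. The share spanned was 23.8% and 15.1% at these limits, 35.3% by start site alone and 26.6% for loops under 1 Mb. In the anchor bins of the 10 genes' loops by the gene records, the share with a consensus match was 15.8% without mismatch and 94.7% with at most 2 mismatches, beside 13.6% and 93.7% of all anchor bins and 2.46% and 81.9% of all bins. The causes of these changes were not tested. No paired analysis was possible because loops were called on pooled replicates only, and leaving out a replicate could not be run. The list gives no depth per replicate, and a missing loop sets no limit on a contact.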
